A study of Mus musculus with 12 samples.

Results

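The long noncoding RNAs described here were Meg3, Rian, Mirg, Snhg11, Snhg14, Miat, Malat1 and Neat1, 8 of the 55335 genes in the count matrices, chosen by gene symbol. They were followed across nuclear classes of the mouse cortex and between animals heterozygous (Het) for a loss-of-function allele of Myt1l and wild-type (WT) animals. Myt1l encodes a zinc-finger transcription factor of neurons, and the Het animals carried the frameshift allele S710fsX in all cells on a C57BL/6 background. Cortices of 12 animals at postnatal day 21 were measured by single nucleus RNA sequencing, 6 WT and 6 Het, each genotype with 3 males and 3 females. Animals of both genotypes had received AAV9 vectors for a hyperactive piggyBac transposase and a nuclear tdTomato reporter into the ventricles around birth, so that no group was free of virus. They came from several litters, and the litter of each animal is not given in the labels.

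Many long noncoding RNAs remain in the nucleus, where single nucleus libraries count them directly. Meg3, Rian and Mirg lie in the Dlk1-Dio3 imprinted domain and are expressed from the maternal chromosome, whereas the protein-coding genes Dlk1, Rtl1 and Dio3 of the domain are expressed from the paternal chromosome. Rian hosts C/D box small nucleolar RNAs and Mirg hosts a large group of microRNAs. Snhg11 and Snhg14 are small nucleolar RNA host genes, and Snhg14, expressed from the paternal chromosome of the Prader-Willi domain, runs antisense to Ube3a in neurons. Malat1 is a constituent of nuclear speckles, Miat is a nuclear RNA of neurons, and Neat1 is the scaffold RNA of paraspeckles.

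In GENCODE M21 (GRCm38/mm10) the imprinted RNAs were annotated on the plus strand, Meg3 at chr12:109541001-109571726, Rian at chr12:109603940-109661716 and Mirg at chr12:109729764-109749460. Rian started 32.2 kb after the end of Meg3, and Mirg started 68.0 kb after the end of Rian. Snhg14 was annotated on the minus strand at chr7:59307924-59975759 and overlapped Ube3a (chr7:59228750-59311536, plus strand) by 3.61 kb. Malat1 (chr19:5795690-5802672) and Neat1 (chr19:5824708-5845478) were neighbours on the minus strand, 22.0 kb apart. Snhg11 lay at chr2:158375638-158386145 on the plus strand and Miat at chr5:112213228-112229395 on the minus strand. The annotation listed Snhg11 as protein coding, Rian and Snhg14 as processed transcripts and the other 5 as long intergenic noncoding RNAs.

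The start regions of Meg3, Rian and Malat1 are printed because Meg3 opens the imprinted cluster and because those of Rian and Malat1 held AAGTT, the core letters recognized by the zinc fingers of the MYT1 family. Sequences are from RefSeq (GRCm38.p6), reach from 250 bases before to 50 bases after the start on the strand of the gene, and have matches on either strand in capitals (AAGTT, or AACTT on the opposite strand). The windows are chr12:109540746-109541045 for Meg3, chr12:109603695-109603994 for Rian and chr19:5802623-5802922 (minus strand) for Malat1.
Meg3: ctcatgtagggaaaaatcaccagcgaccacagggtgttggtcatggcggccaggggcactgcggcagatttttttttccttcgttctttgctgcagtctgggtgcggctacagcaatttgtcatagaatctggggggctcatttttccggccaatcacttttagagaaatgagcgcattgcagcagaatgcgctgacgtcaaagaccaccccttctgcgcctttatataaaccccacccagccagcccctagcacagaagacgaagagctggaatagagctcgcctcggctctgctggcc
Rian: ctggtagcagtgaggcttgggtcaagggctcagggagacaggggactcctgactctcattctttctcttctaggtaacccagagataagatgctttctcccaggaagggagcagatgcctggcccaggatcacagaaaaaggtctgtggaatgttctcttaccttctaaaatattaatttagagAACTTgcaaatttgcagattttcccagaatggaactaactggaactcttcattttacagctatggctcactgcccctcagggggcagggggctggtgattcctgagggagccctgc
Malat1: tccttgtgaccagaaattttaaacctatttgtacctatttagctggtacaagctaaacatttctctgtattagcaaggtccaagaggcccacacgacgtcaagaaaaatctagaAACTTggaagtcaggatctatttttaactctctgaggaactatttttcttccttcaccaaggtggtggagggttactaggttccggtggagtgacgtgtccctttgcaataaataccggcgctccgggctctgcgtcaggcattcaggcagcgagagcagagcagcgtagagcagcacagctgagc
RefSeq windows were matched for 7 of the 8 RNAs (Neat1 was not matched), 8 windows in all, and 2 of the 8 windows held a match. Of 32851 promoter windows of the same length 39.3% held AAGTT on either strand.

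The microRNAs are printed because they lie within the RNAs counted here, although mature microRNAs were not measured. The RefSeq table listed 26 mature microRNAs on the plus strand within Mirg, 6 within Rian and 3 within Meg3, and none within the other 5 RNAs on their strands. Bases 2 to 8 of each mature sequence, the seed, are in capitals. miR-134-5p (chr12:109734145-109734166), a microRNA known from neuronal dendrites, and miR-453 (chr12:109735669-109735692) and miR-496a-5p (chr12:109739132-109739152), the only listed mature sequences of the 3 RNAs with a shared seed, lie within Mirg. miR-370-3p (chr12:109618305-109618326) lies within Rian.
mmu-miR-134-5p: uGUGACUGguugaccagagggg
mmu-miR-453: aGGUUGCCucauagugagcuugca
mmu-miR-496a-5p: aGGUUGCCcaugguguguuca
mmu-miR-370-3p: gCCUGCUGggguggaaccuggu

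The deposited matrices held between 2.34e+07 and 5.99e+07 unique molecular identifiers (UMIs) per animal, and no barcode was shared between animals. After filtering, 33116 nuclei remained, 14344 from WT and 18772 from Het animals, with a median of 2978.5 to 3398 UMIs per nucleus. Nuclei were classed by the UMIs of marker genes. The 8 RNAs were not markers, but the rule was set after class levels of Meg3 and of neuronal genes had been seen under an earlier rule. It also capped neuronal marker UMIs in glia. The classes are thus not independent of Meg3 or of other neuronal RNAs. Differences of the 8 RNAs between neurons and glia, with their intervals and calls, are given as descriptions. The classes held 11820 excitatory-like, 4352 inhibitory-like, 1486 oligodendrocyte-like, 238 oligodendrocyte precursor (OPC)-like, 163 astrocyte-like, 101 microglia-like and 28 vascular-like nuclei, while 41.8% of nuclei had too few marker UMIs for a class. Subclasses were 1822 upper-layer-like and 3161 layer 6 corticothalamic (L6 CT)-like excitatory nuclei, and 1526 and 622 inhibitory nuclei with markers of the medial (MGE) and caudal (CGE) ganglionic eminences, besides 188 with markers of striatal projection neurons. In these 188 the median was 3 astrocyte-marker UMIs beside 4 inhibitory-marker UMIs, 115 of them had 3 or 4 marker UMIs, and the stricter marker rule moved their levels of Mirg, Miat, Malat1 and Neat1 by more than 1 SD (Miat to 50.2 from 13.5 CPM), so that their name is uncertain. Levels are UMIs of a gene per 1000000 UMIs (CPM) in the summed nuclei of a class in an animal, as mean ± SD over the animals with at least 10 such nuclei. Myt1l RNA was 997 ± 82.3 CPM in WT and 1105 ± 63.7 CPM in Het excitatory-like nuclei (n = 6 each), a log2 difference of 0.13 (SE 0.057, unadjusted p = 0.026, edgeR adjusted p = 0.56). The level was thus not lower in Het animals, and gene counts do not show whether the frameshift itself is present.

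The RNAs differed in which nuclei held most of them. For 6 of the 8 the highest class mean was neuronal: Meg3, Rian, Snhg11 and Snhg14 were highest in MGE-like nuclei, Mirg in CGE-like nuclei and Miat in upper-layer-like nuclei. Most of the 11 classes with levels are neuronal, and the share of all genes highest in a neuronal class was not computed. Malat1 was highest in oligodendrocyte-like and Neat1 in astrocyte-like nuclei. Malat1 was nonetheless abundant in neurons, at 17536 ± 1594 CPM in excitatory-like nuclei. Each order below is for 1 RNA across classes, because the counts were not scaled by transcript length.

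**Figure D1:**
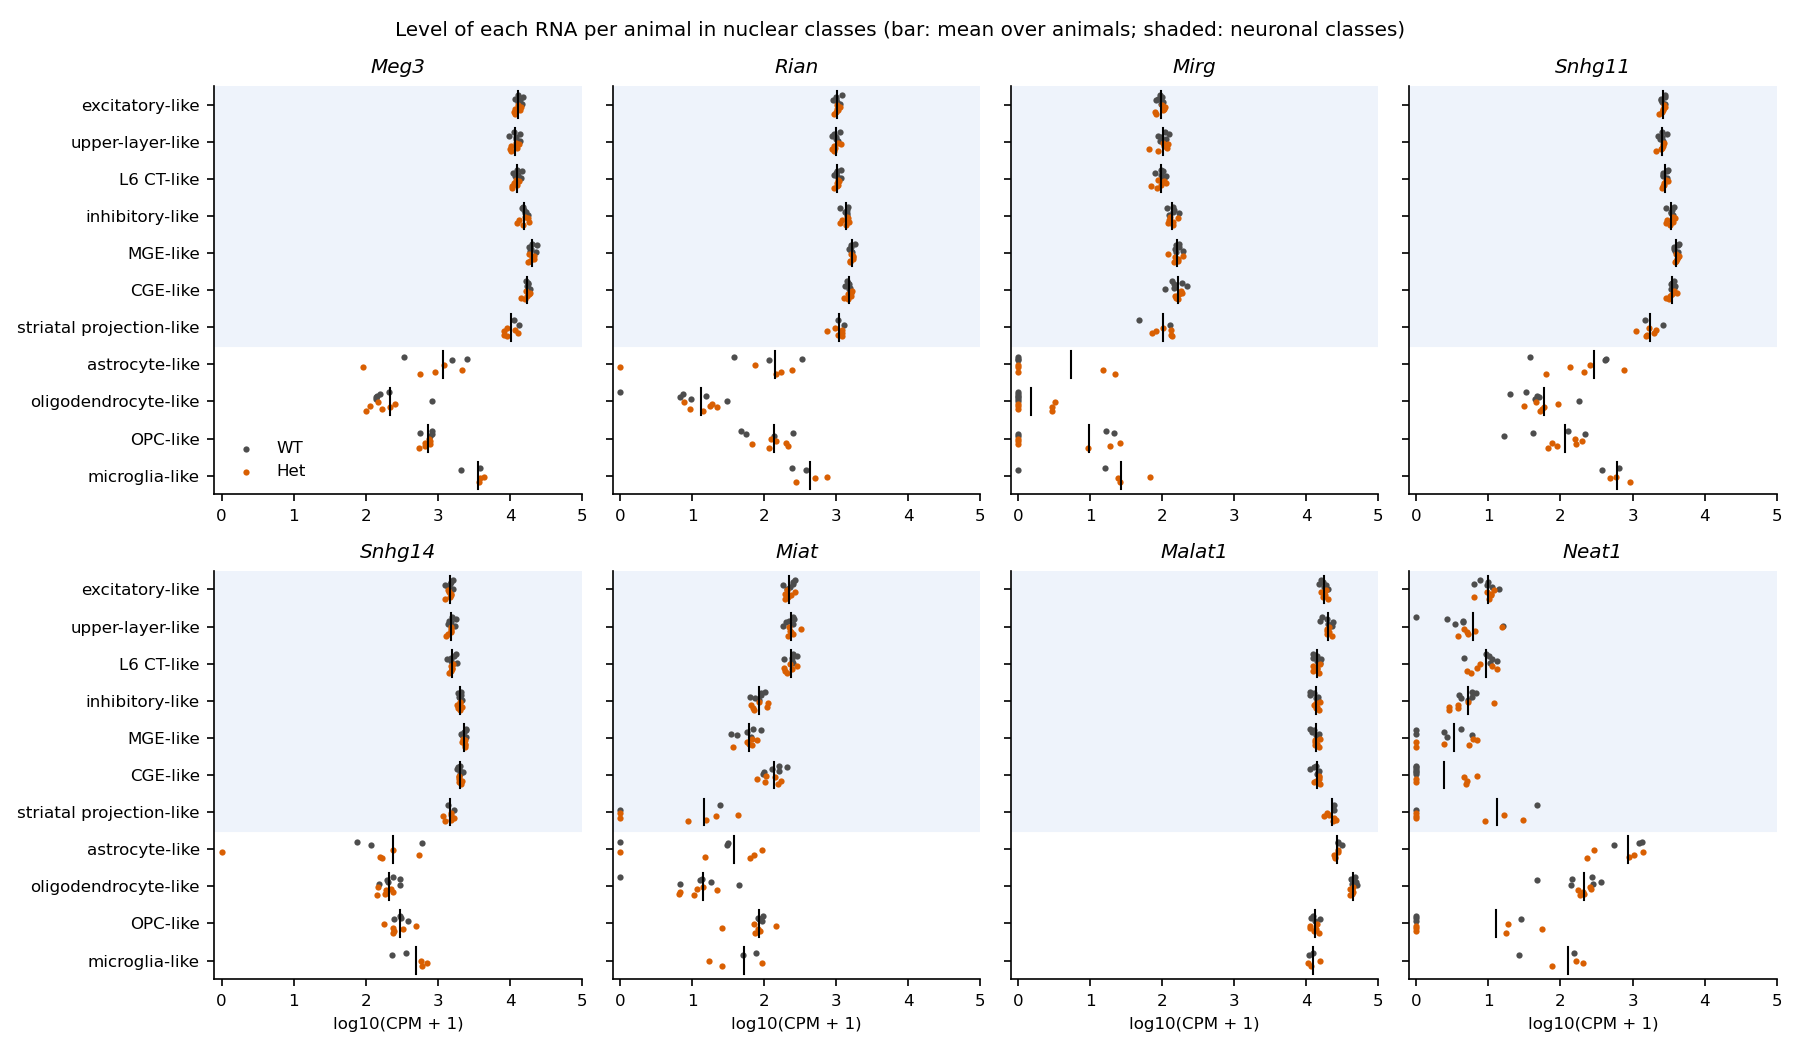
Each point is an animal (grey WT, orange Het) placed by log10(CPM + 1) on the horizontal axis for each nuclear class on the vertical axis, and the black bar is the mean over animals with at least 10 nuclei of the class. Meg3, Rian, Mirg, Snhg11 and Snhg14 lie farther right in the shaded neuronal classes than in the glial classes, whereas Malat1 lies farthest right in oligodendrocyte-like nuclei (43997 CPM on average) and Neat1 in astrocyte-like nuclei (877 CPM).

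Meg3, the first RNA of the imprinted cluster, ranged over the 12 animals from 11449 to 15026 CPM (median 12977) in excitatory-like nuclei and from 12650.5 to 18318 CPM (median 15996) in inhibitory-like nuclei. The ranges overlapped, but the inhibitory-like level was the higher one in 11 of 12 animals. Within the inhibitory nuclei, Meg3 was at 20216 ± 1834 CPM in MGE-like and 17279.6 ± 1317 CPM in CGE-like nuclei, in this order in 12 of 12 animals. Upper-layer-like nuclei had 11779.6 ± 1419 CPM and L6 CT-like nuclei 12324 ± 1308 CPM. Striatal projection-like nuclei had 10503 ± 2138 CPM (n = 8), within the spread of upper-layer-like nuclei. Meg3 took 1.31% of all UMIs of excitatory-like nuclei.

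Rian was at 1639.8 ± 89.8 CPM in MGE-like, 1486 ± 107 CPM in CGE-like and 1034 ± 79.4 CPM in excitatory-like nuclei (n = 12). The first 2 kept their order in 11 of 12 animals, and the striatal projection-like, L6 CT-like, excitatory-like and upper-layer-like means were each within the spread of the next. Mirg was at 162 ± 29.0 CPM in CGE-like, 161 ± 20.4 CPM in MGE-like and 94.0 ± 9.64 CPM in excitatory-like nuclei. Its CGE-like and MGE-like means did not differ beyond their spread (in order in 5 of 12 animals), and its inhibitory-like mean, 137 ± 16.1 CPM, was above its excitatory-like mean.

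Summed as an imprinted cluster, Meg3, Rian and Mirg were at 14213 ± 1264 CPM in excitatory-like, 17360 ± 1868 CPM in inhibitory-like and 22017 ± 1876 CPM in MGE-like nuclei, against 230.3 ± 200 CPM in oligodendrocyte-like nuclei (n = 12 each). The cluster took 2.20% of UMIs in MGE-like nuclei. In counted UMIs, not corrected for length, Meg3 made up 92.0 ± 0.695% of the sum in excitatory-like and 91.4 ± 0.559% in inhibitory-like nuclei. Rian made up 7.31 ± 0.659% and 7.81 ± 0.507%, and Mirg 0.663 ± 0.0645% and 0.793 ± 0.0836%. Meg3 thus dominated the sum in both main neuronal classes, while the share of Mirg was higher in inhibitory-like nuclei and the sum differed.

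Other genes of the same domain gave a mixed picture. B830012L14Rik, a noncoding RNA annotated between Rian and Mirg on the same strand (chr12:109695586-109702587), was at 306 ± 23.1 CPM in excitatory-like, 489.8 ± 64.2 CPM in MGE-like and 4.99 ± 5.13 CPM in oligodendrocyte-like nuclei. The genes of the paternal chromosome were at low levels in excitatory-like nuclei. Rtl1, a retrotransposon-derived gene on the strand opposite to Meg3, was at 5.21 ± 1.47 CPM, Dlk1, a transmembrane ligand related to Notch ligands, at 1.83 ± 0.899 CPM, and Dio3, which inactivates thyroid hormone, at 0.0413 ± 0.0976 CPM.

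Of the small nucleolar RNA host genes, Snhg11 was at 4073 ± 239 CPM in MGE-like, 3557 ± 334 CPM in CGE-like, 2809 ± 200.5 CPM in L6 CT-like and 1765 ± 468 CPM in striatal projection-like nuclei (n = 8 for the last). Snhg14 ranged from 1848 to 2145 CPM (median 2045) in inhibitory-like and from 1237 to 1632 CPM (median 1480) in excitatory-like nuclei. These 2 ranges of Snhg14 did not overlap. Nor did those of Snhg11 (at most 2859 CPM in excitatory-like, at least 2880 CPM in inhibitory-like nuclei) and Mirg (at most 108 and at least 117 CPM). The share of all genes whose ranges do not overlap between classes was not computed. Snrpn, which encodes a splicing protein and lies next to Snhg14, was at 149 ± 12.4 CPM in excitatory-like and 281 ± 34.3 CPM in inhibitory-like nuclei, and the ubiquitin ligase gene Ube3a was at 289.7 ± 31.9 and 356 ± 33.0 CPM.

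Miat had the opposite order between the main neuronal classes. It ranged from 180.2 to 269 CPM (median 220.3) in excitatory-like and from 62.1 to 112 CPM (median 83.6) in inhibitory-like nuclei, and no inhibitory-like value reached the lowest excitatory-like value. Within inhibitory nuclei Miat was at 134 ± 38.8 CPM in CGE-like and 60.4 ± 17.0 CPM in MGE-like nuclei. Upper-layer-like (237 ± 35.7 CPM) and L6 CT-like nuclei (234 ± 34.3 CPM) did not differ beyond their spread.

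Malat1 ranged from 40072 to 49909 CPM (median 43262) in oligodendrocyte-like nuclei, where it took 4.40% of UMIs, and from 23974 to 30876 CPM (median 27188) in astrocyte-like nuclei (n = 8). The order of these 2 classes held in 8 of 8 animals. In upper-layer-like nuclei it ranged from 15642 to 23177 CPM (median 19609) and in L6 CT-like nuclei from 12407 to 15989 CPM (median 14128), and the 2 ranges met at their edges. The inhibitory subclasses, with 13609 ± 1254 CPM in MGE-like and 13992 ± 1223 CPM in CGE-like nuclei, lay within 1 SD of each other. OPC-like nuclei, the precursors of oligodendrocytes, had 13062 ± 1474 CPM (n = 10), within the spread of inhibitory-like nuclei.

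Neat1 was low in neurons and OPC-like nuclei and higher in astrocyte-like, oligodendrocyte-like and microglia-like nuclei. It ranged from 229 to 1405 CPM (median 970) in astrocyte-like nuclei (n = 8, 291 UMIs in all), from 45.6 to 366 CPM (median 208) in oligodendrocyte-like and from 5.24 to 13.1 CPM (median 9.03) in excitatory-like nuclei (378 UMIs in all). Microglia-like nuclei had 125 ± 73.0 CPM (n = 5), and OPC-like nuclei, with 8 UMIs in all, had 11.6 ± 18.1 CPM. The 28 vascular-like nuclei, pooled over animals, held 63 Neat1 UMIs or 773 CPM (exact 95% Poisson interval 594 to 989 CPM, counting error only).

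Neuronal RNAs were also counted in nuclei classed as glia. Their levels there are set beside the sum of 10 other neuronal genes that were not class markers (Snap25, Syt1, Rbfox3, Rbfox1, Grin2b, Grin2a, Celf4, Stmn2, Camk2b and Kcnip4). The glial rule capped neuronal marker UMIs and was set with levels of neuronal genes seen, so these 10 genes are not an independent reference. As a share of the excitatory-like level in the same animals, these 10 genes were at 2.14% in oligodendrocyte-like, 12.03% in astrocyte-like, 13.4% in OPC-like and 27.3% in microglia-like nuclei. Meg3 was at 1.66%, 8.97%, 5.55% and 26.5% in the same classes. Rian was at 1.21%, 13.9%, 13.4% and 41.5%. Snhg14 was at 14.3%, 16.9%, 20.8% and 34.0%, above the 10 genes in each, and Miat was at 37.8% in OPC-like nuclei. The part of RNA from neurons in these glial levels was not tested. Under a stricter marker rule for OPC-like nuclei, Miat was at 51.4 in place of 83.9 CPM and Snhg11 at 25.7 in place of 115 CPM, and 129 of the 238 OPC-like nuclei lay near the limit of 8 marker UMIs. With doublets kept, Meg3 in oligodendrocyte-like nuclei was at 518 in place of 217 CPM.

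**Figure D2:**
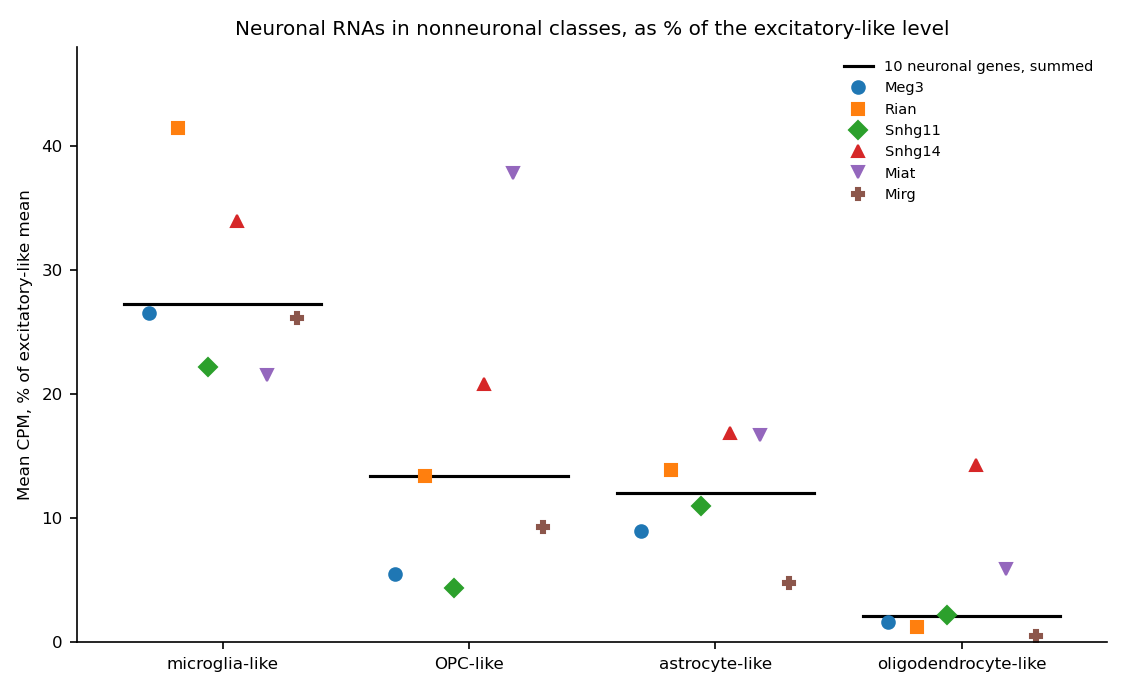
Mean level of 6 RNAs (symbols) and of 10 other neuronal genes summed (black lines) in 4 glial classes on the horizontal axis, as a percentage of the excitatory-like mean on the vertical axis. Snhg14 lies above it in each class, and Miat stands at 37.8% in OPC-like nuclei.

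Classes were then compared within animals, on the sums per animal, with edgeR's quasi-likelihood test and the animal as a block. A gene was called at a Benjamini-Hochberg adjusted p under 0.05, taken over all genes tested, with a log2 difference beyond 0.2 in either direction. Between excitatory-like and inhibitory-like nuclei 53.7% of 9948 genes were called, 26.8% higher and 26.9% lower in excitatory-like nuclei. All 7 RNAs tested were called, and Neat1 did not pass the filter on low counts. The RNAs of the imprinted cluster were lower in excitatory-like nuclei, with log2 differences of -0.24 for Meg3 (95% interval -0.32 to -0.15, 1.18-fold), -0.34 for Rian (-0.43 to -0.26) and -0.50 for Mirg (-0.60 to -0.39). Snhg11 (-0.33, -0.42 to -0.24) and Snhg14 (-0.44, -0.52 to -0.35) were lower as well. Miat was higher in excitatory-like nuclei by 1.45 (1.35 to 1.55, 2.73-fold, adjusted p = 4.0e-20) and Malat1 by 0.42 (0.34 to 0.49). Without the filter on low counts the Meg3 difference was -0.14, and without the upper limits per nucleus and the ratio of genes to UMIs the Rian difference was -0.16, both under the fold limit.

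Imprinted genes in the lists read beside the RNAs were often lower in excitatory-like nuclei. In the Dlk1-Dio3 domain 2 of 6 other genes were tested, and B830012L14Rik was called, with a log2 difference of -0.34 (SE 0.043). In the Snhg14 domain 3 of 8 were tested, of which Snrpn, at -0.87 (SE 0.052), and Ube3a, at -0.26 (SE 0.045), were lower and 1 was higher. Of 20 tested imprinted genes elsewhere in the genome, 12 were lower and 3 higher, with a median of -0.33 against -0.011 over all genes tested. Examples chosen after their values were seen were Peg3, a zinc-finger gene, at -0.77 (SE 0.047), and Kcnk9, a potassium channel gene expressed from the maternal chromosome, at 2.05 (SE 0.060). Of 19 tested other long noncoding RNAs, 7 were lower and 3 higher, with a median of -0.11.

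Against oligodendrocyte-like nuclei 77.4% of 8479 genes were called, and 8 of 8 RNAs were called, 6 higher in excitatory-like nuclei (42.5% of all genes) and 2 lower (34.9%). Among the 6, Mirg, Rian and Miat passed the filter on low counts only through excitatory-like nuclei, so their calls add nothing to that count. Rian and Miat had 49 and 46 oligodendrocyte-like UMIs, and the lowest level of each there was 0 CPM. The log2 difference was 6.29 for Meg3 (78.3-fold), 6.45 for Rian (95% interval 6.19 to 6.72) and 5.72 for Snhg11 (5.45 to 5.99). These intervals may be too narrow for the spread between animals. The SE of Rian was 0.13 in edgeR and 0.30 in DESeq2, and that of Snhg11 0.14 and 0.23. The pooled excitatory-like level of Rian was 82.4 times as high, with a wider interval from counting error alone (62.3 to 111). Without doublet removal the Meg3, Rian and Snhg11 differences were 4.86, 4.92 and 4.79. Mirg had 3 UMIs in all oligodendrocyte-like nuclei, and its pooled excitatory-like level was 123 times as high (counting interval 42.0 to 595). Snhg14 differed less, by 2.98 (2.81 to 3.16), and Miat by 4.33 (4.03 to 4.63). Malat1 was lower in excitatory-like nuclei by 2.25-fold (-1.17, SE 0.087) and Neat1 by 20.3-fold (-4.35, -4.61 to -4.08). Neat1 passed the filter on low counts only through oligodendrocyte-like nuclei, so its call adds nothing to the count of 2 lower RNAs. RNA was also compared for genes whose proteins share nuclear bodies with Malat1 and Neat1, and protein was not measured. Of 10 nuclear speckle protein genes 7 were lower in excitatory-like nuclei and none was higher, with the splicing factor gene Srsf2 at -1.42 (SE 0.080). Of 9 tested paraspeckle protein genes 4 were lower and 1 was higher, with Hnrnpk, which encodes an RNA-binding protein, at -1.19 (SE 0.10). These 2 examples were also chosen after their values were seen, and the medians of the lists were -0.43 and -0.20 against 0.095 over all genes tested.

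Against OPC-like nuclei (10 animals) 45.9% of 7619 genes were called and 7 of 7 RNAs were higher in excitatory-like nuclei (29.3% of all genes were higher and 16.6% lower), from 0.62 for Malat1 (95% interval 0.48 to 0.76) to 4.80 for Snhg11 (4.51 to 5.08). Among the 7, Mirg had 5 OPC-like UMIs and passed the filter on low counts only through excitatory-like nuclei, so its call adds nothing to that count. Miat, at 1.60 (1.21 to 2.00), had the smallest difference after Malat1. The SE of Snhg11 was 0.15 in edgeR and 0.30 in DESeq2, so these intervals may be too narrow as well. With neither the upper limits nor the ratio, Malat1 was at 1.23 and Rian at 3.83 in place of 3.12. Against astrocyte-like nuclei (8 animals) 42.3% of 7601 genes were called, 29.4% higher and 12.9% lower, and 6 RNAs were higher and 1 was lower. Among the 6, Mirg had 2 astrocyte-like UMIs, and the lowest astrocyte-like level of Rian, Snhg14 and Miat was 0 CPM. These RNAs passed the filter on low counts only through excitatory-like nuclei, so their calls add nothing to that count. Neat1 was lower in excitatory-like nuclei by 70.9-fold (-6.15, -6.60 to -5.69). At 5.24 to 13.1 CPM in excitatory-like nuclei, it may have passed the filter only through astrocyte-like nuclei, and its call is not read as support. Meg3 was at 4.12, and Malat1 was the 1 of 8 RNAs not called (-0.16, -0.52 to 0.19). With neither the upper limits per nucleus nor the ratio of genes to UMIs, that Malat1 value was 0.40. These differences are on edgeR's TMM scale, on which the median over all genes was 0.42 against astrocyte-like, 0.24 against OPC-like and 0.50 against microglia-like nuclei, and they depart from ratios of the CPM levels. In CPM, Malat1 in astrocyte-like nuclei was at 153% of its excitatory-like level, with ranges that did not overlap, and in microglia-like nuclei at 72.2%. Against microglia-like nuclei (5 animals) 39.8% of 9189 genes were called, and 8 of 8 RNAs, with Neat1 lower by 8.60-fold (-3.10, -3.96 to -2.25) and the other 7 higher in excitatory-like nuclei. Among the 7, Mirg had 5 and Miat 12.5 microglia-like UMIs, and the lowest Miat sum there, 0.5 UMIs, was rounded down. Mirg and Miat passed the filter on low counts only through excitatory-like nuclei, so their calls add nothing to that count. Neat1 may have passed it only through microglia-like nuclei, and its call is not read as support. Under the stricter marker rule Meg3 was at 3.51 in place of 2.72, Rian at 3.07 in place of 2.13 and Snhg14 at 3.05 in place of 2.37.

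**Figure D3:**
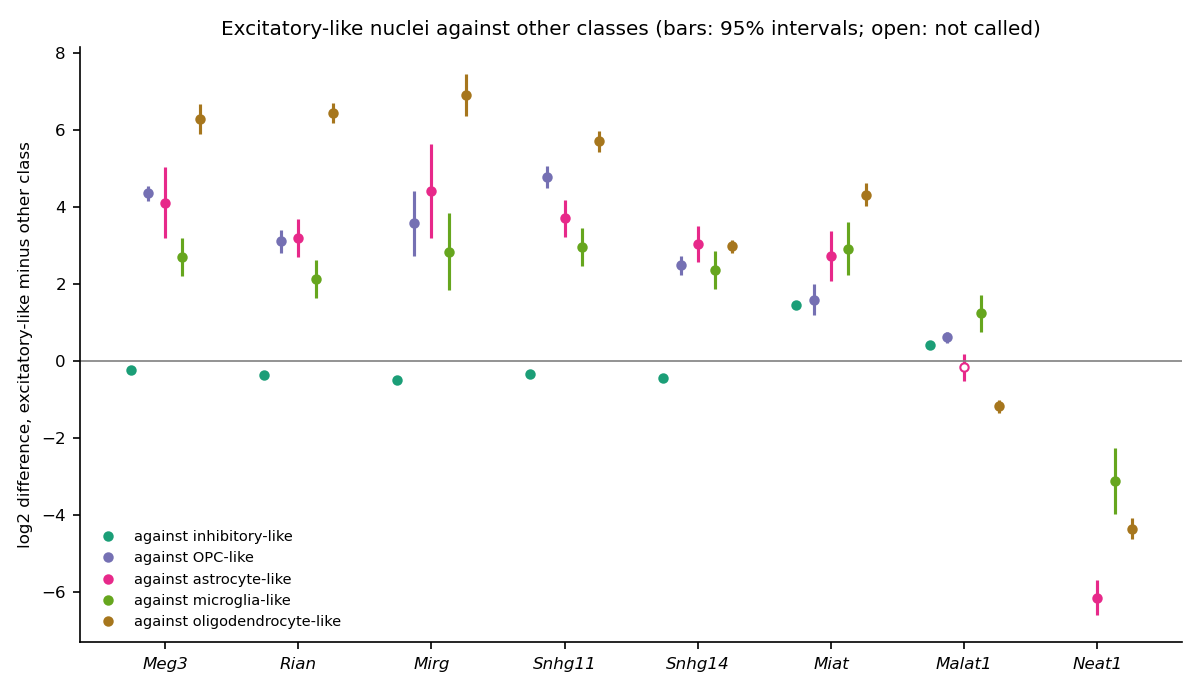
Log2 difference between excitatory-like nuclei and 5 other classes (colours) on the vertical axis for each RNA on the horizontal axis, with 95% intervals, filled where called. Meg3, Rian, Mirg, Snhg11 and Snhg14 lie below 0 against inhibitory-like nuclei and above 0 against the 4 glial classes, while Neat1 lies below 0 in its 3 tests. The Mirg points rest on 3 UMIs in oligodendrocyte-like, 2 UMIs in astrocyte-like, 5 UMIs in OPC-like and 5 UMIs in microglia-like nuclei. Intervals of RNAs with few glial UMIs may understate the spread between animals. A call adds nothing where the RNA passed the filter on low counts only through the class where it was high.

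Between the excitatory subclasses 39.9% of 6840 genes were called, and Malat1 was the 1 RNA called of 7 tested. It was lower in L6 CT-like than in upper-layer-like nuclei by 1.46-fold (log2 difference -0.55, 95% interval -0.61 to -0.48, adjusted p = 8.5e-22). Meg3 (0.026, -0.036 to 0.087) and Rian (0.030, -0.049 to 0.11) were not called. Snhg11 passed the adjusted p (0.0241) at 0.097 (0.026 to 0.17), under the fold limit.

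Levels were also read against the depth of a nucleus, with neither the upper limits nor the ratio of genes to UMIs applied. The ratio alone was missed by 43095 of 78743 barcodes, so these nuclei differ from the main set by more than added deep nuclei. In excitatory-like nuclei Meg3 was at 13700.1 ± 1109 CPM under 2500 UMIs and 12537 ± 1319.9 CPM over 6000 UMIs, whereas Rian was at 1054 ± 85.3 and 1225 ± 58.5 CPM (n = 12). In inhibitory-like nuclei Meg3 was at 13746 ± 2698 and 16587 ± 1220.5 CPM. The Meg3 means of the 2 classes were thus close in shallow nuclei and apart in deep ones. Malat1 in excitatory-like nuclei was at 19031 ± 2197 and 18836 ± 1458 CPM.

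For each RNA, the 3 genes with the most similar class pattern were found among 4666 genes. Ranking was by Pearson's r of log2(mean CPM + 1) over 7 classes and subclasses, which ignores the size of a difference. The 3 genes were Gm37899 (r = 0.9998), the kinesin gene Kif5c and B830012L14Rik for Meg3, and the same 3 genes for Rian. Gm37899 (chr12:109668869-109677585) is annotated between Rian and Mirg on their strand, and was also among the 3 for Mirg, with Smarca1 and Nmnat2, and for Snhg11, with B830012L14Rik and A230103L15Rik. A230103L15Rik is annotated within Snhg14 on its strand. For Snhg14 they were Gm44562 (r = 0.9995), Stau2 and 9330162G02Rik, of which Gm44562 and 9330162G02Rik are annotated on the minus strand, overlapping Ube3a. For Malat1 they were Gm37376 (r = 0.9973), Kmt5a and Lsm14a, and Gm37376 is annotated within Malat1 on the opposite strand, so that reads of the 2 may not be separable. For Miat they were Ptpn3, Plppr2 and Rgs6, and for Neat1 Actb, Phrf1 and Eya3. Actb was at 49.6 CPM in excitatory-like and 83.4 CPM in oligodendrocyte-like nuclei, where Neat1 was at 8.92 and 212 CPM. The classes share libraries and, where nested, nuclei, and 6 of the 7 are neuronal.

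Het and WT animals were compared within each class on sums per animal, the comparison that the study's design turned on. No RNA tested was called in any of 6 classes. All 8 were tested in excitatory-like nuclei, 7 (without Neat1) in upper-layer-like, L6 CT-like and inhibitory-like nuclei, 5 in oligodendrocyte-like nuclei (without Rian, Mirg and Miat) and 4 in astrocyte-like nuclei. Over all genes, edgeR called 0.153% of 12380 in excitatory-like, 0.0505% of 5939 in upper-layer-like and 0.127% of 7860 in L6 CT-like nuclei. It called 0 of 9505 genes in inhibitory-like, 0 of 816 in astrocyte-like and 0 of 4444 in oligodendrocyte-like nuclei, where 433, 30 and 214 genes had an unadjusted p under 0.05 and DESeq2 also called 0 in each. Calls were thus rare among all genes, and the 0 calls among the RNAs are read against that background.

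In excitatory-like nuclei Meg3 ranged from 11702 to 15026 CPM in WT animals (median 13296) and from 11449 to 14282 CPM in Het animals (median 12391). Rian ranged from 902 to 1188 CPM in WT animals (median 1016) and from 938 to 1118 CPM in Het animals (median 1030.1). Mirg ranged from 81.1 to 102 CPM in WT animals (median 93.6) and from 79.3 to 108 CPM in Het animals (median 101). The genotypes overlapped for all 3 RNAs of the cluster. The log2 difference of Het minus WT was -0.11 for Meg3 (95% interval -0.22 to 0.0024, edgeR adjusted p = 0.691, 4 of 6 Het animals below the WT median), -0.037 for Rian (-0.16 to 0.084) and 0.032 for Mirg (-0.12 to 0.18). As a cluster they summed to 14649 ± 1264 CPM in WT and 13777 ± 1209 CPM in Het animals, and Rian made up 7.14 ± 0.875% and 7.47 ± 0.353% of the sum.

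Snhg11 in the same nuclei ranged from 2462 to 2853 CPM in WT animals (median 2678) and from 2328 to 2859 CPM in Het animals (median 2614). Snhg14 ranged from 1237 to 1632 CPM in WT animals (median 1509) and from 1270.4 to 1506 CPM in Het animals (median 1452). All 6 Het animals were below the WT median of Snhg14, yet the ranges overlapped. The log2 differences were -0.045 (95% interval -0.15 to 0.060) and -0.070 (-0.20 to 0.059). In the same domain Ube3a was at -0.021 (SE 0.083) and Snrpn at -0.075 (SE 0.067), neither called.

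Miat ranged from 180.2 to 269 CPM in WT animals (median 239) and from 194 to 265 CPM in Het animals (median 209). Malat1 ranged from 14788 to 19891 CPM in WT animals (median 17149) and from 16008 to 19657 CPM in Het animals (median 17851). Neat1 ranged from 5.24 to 13.1 CPM in WT animals (median 8.80) and from 5.36 to 11.0 CPM in Het animals (median 9.45). The genotypes overlapped for each of these nuclear RNAs too. The log2 differences were -0.11 for Miat (95% interval -0.29 to 0.074), 0.035 for Malat1 (-0.087 to 0.16) and 0.012 for Neat1 (-0.37 to 0.40). Neat1, with 378 UMIs in the 12 animals together, had the widest of the 3 intervals.

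**Figure D4:**
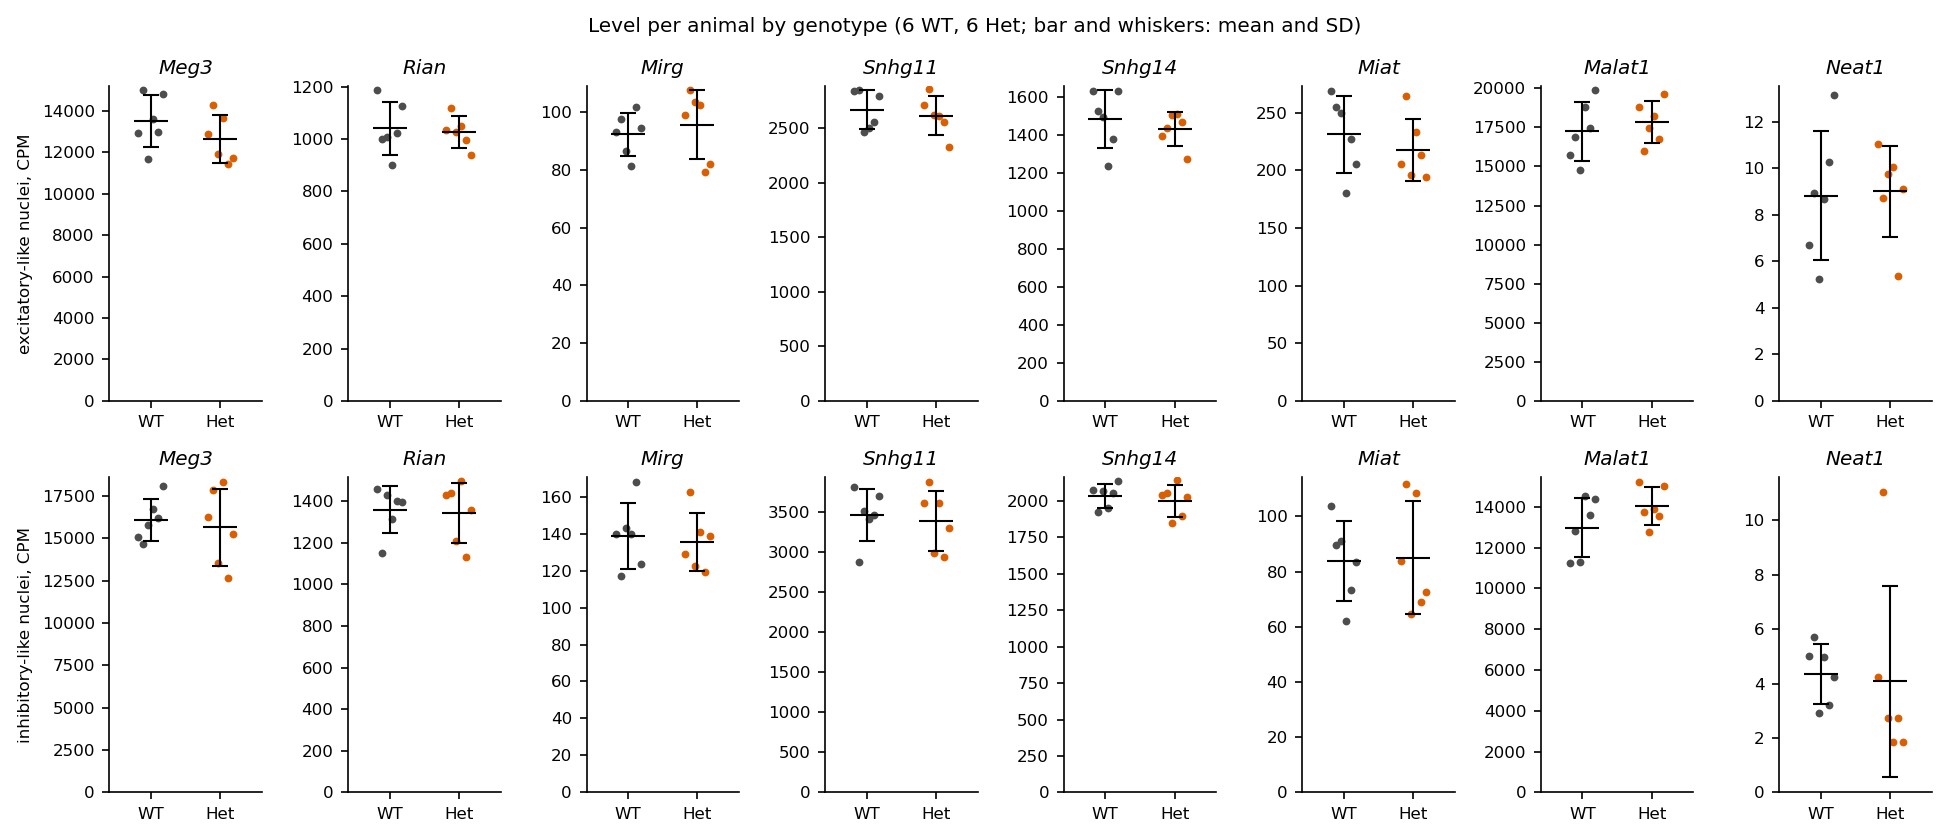
Level in CPM on the vertical axis of each panel for single animals (points) of each genotype on the horizontal axis, with mean and SD, in excitatory-like (top) and inhibitory-like nuclei (bottom). WT and Het animals overlap in each panel, for example from 11702 to 15026 CPM and from 11449 to 14282 CPM for Meg3 in excitatory-like nuclei.

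In L6 CT-like nuclei, deep-layer neurons that project to the thalamus, Meg3 ranged from 11059 to 14544 CPM in WT animals (median 12740.5) and from 10644 to 13347 CPM in Het animals (median 11631), and 5 of 6 Het animals were below the WT median. The log2 difference was -0.15 (95% interval -0.27 to -0.027), the 1 value of the 8 RNAs in the 6 genotype comparisons with an unadjusted p under 0.05. In L6 CT-like nuclei 693 of all 7860 genes tested had such a p. The Meg3 value did not pass the adjustment (edgeR adjusted p = 0.447, and from 0.341 to 0.674 over the alternatives). All 7 RNAs tested there had values below 0, none of them called (0.0382% of all genes were called lower and 0.0891% higher in Het animals), with a median of -0.088 against -0.0058 over all genes tested. In upper-layer-like nuclei the values ran from -0.13 for Snhg14 (-0.27 to 0.010) to 0.075 for Miat (-0.14 to 0.29). Of the class markers, Slc17a7, the vesicular glutamate transporter of cortical excitatory neurons, was at 0.22 in excitatory-like and 0.30 in upper-layer-like nuclei, uncalled, and its part in the values above was not tested.

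In inhibitory-like nuclei Meg3 ranged from 14647 to 18078 CPM in WT animals (median 15996) and from 12650.5 to 18318 CPM in Het animals (median 15760.5). Malat1 ranged from 11254 to 14511 CPM in WT animals (median 13220) and from 12779 to 15240.1 CPM in Het animals (median 13826). Both overlapped, and 5 of 6 Het animals were above the WT median of Malat1. The log2 differences were -0.059 for Meg3 (95% interval -0.24 to 0.12) and 0.096 for Malat1 (-0.071 to 0.26), and the other 5 RNAs tested lay between -0.050 (Snhg11) and -0.0053 (Miat). Whether the genotype difference itself differed between excitatory-like and inhibitory-like nuclei was tested as an interaction, which called none of the 7 RNAs and, by edgeR and by DESeq2, 0 of 9948 genes (451 with an unadjusted edgeR p under 0.05). The interaction values ran from -0.099 for Miat (-0.30 to 0.11) to 0.050 for Mirg (-0.16 to 0.26).

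In oligodendrocyte-like nuclei Malat1 ranged from 41292 to 49909 CPM in WT animals (median 45384) and from 40072 to 44536 CPM in Het animals (median 42719). All 6 Het animals were below the WT median, the ranges overlapped, and the log2 difference was -0.12 (95% interval -0.26 to 0.015). Meg3 ranged from 138 to 819 CPM in WT animals (median 149) and from 100 to 256 CPM in Het animals (median 158), with a log2 difference of -0.54 (-1.56 to 0.48). Its highest value was that of WT female 3, with 63 nuclei, in which the 10 neuronal genes summed to 1775 CPM against 314 to 813 CPM in the other 11 animals. Without that animal the Meg3 difference was 0.15. In astrocyte-like nuclei (3 WT and 5 Het animals) 4 RNAs were tested, and neither Neat1 (-0.45, -1.64 to 0.74) nor Meg3 (-0.50, -2.17 to 1.17) was called. Meg3 ranged from 90.6 to 2561 CPM over these animals, and the cause of the wide intervals was not tested.

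**Figure D5:**
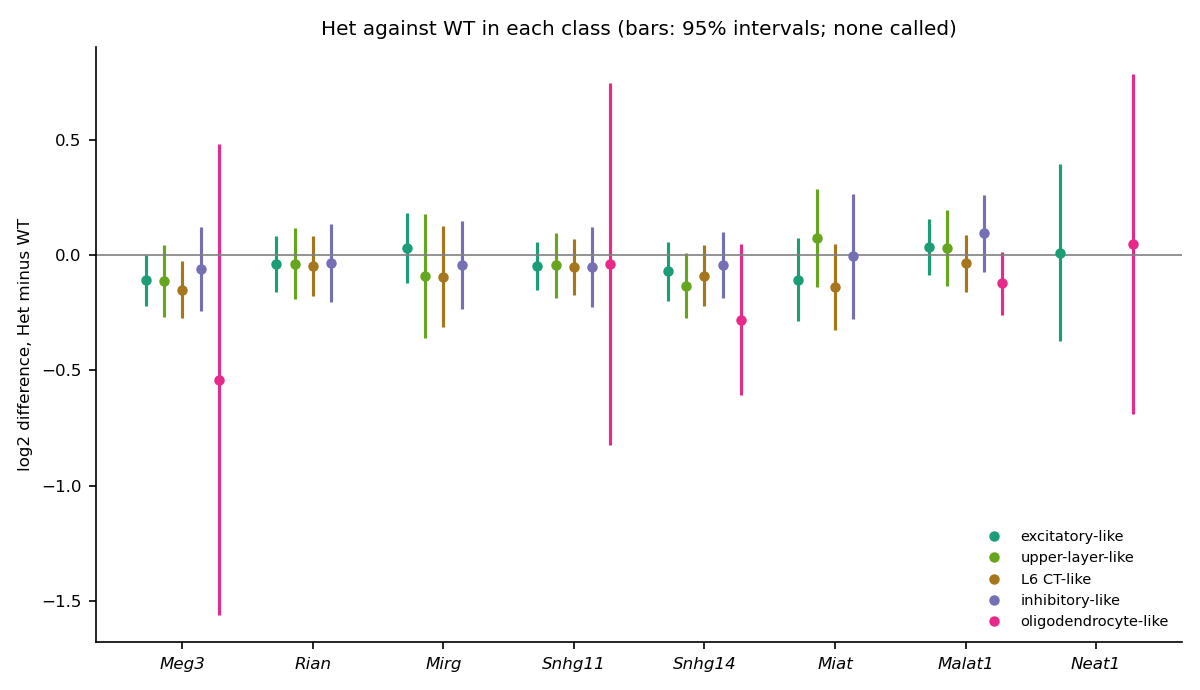
Log2 difference of Het minus WT on the vertical axis for each RNA on the horizontal axis in 5 classes (colours), with 95% intervals. The interval of Meg3 in L6 CT-like nuclei (-0.27 to -0.027) is the 1 that leaves out 0, and the widest is that of Meg3 in oligodendrocyte-like nuclei (-1.56 to 0.48).

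The related gene lists gave no call between genotypes in any class. Beside the 10 neuronal genes (0 called, 2 with an unadjusted p under 0.05), in excitatory-like nuclei edgeR called 0 of 3 tested genes of the Dlk1-Dio3 domain, 0 of 4 of the Snhg14 domain, 0 of 20 imprinted genes elsewhere and 0 of 22 other long noncoding RNAs. It also called 0 of 10 paraspeckle protein genes and 0 of 10 nuclear speckle protein genes. The numbers with an unadjusted p under 0.05 were 0, 0, 0, 4, 0 and 1, against 966 of all 12380 genes tested. Rtl1 was at 0.0064 (SE 0.22), and Dlk1 and Dio3 did not pass the filter on low counts. Those 4 long noncoding RNAs were Sox2ot, which overlaps Sox2, at -0.45 (SE 0.14), Mir9-3hg, a microRNA host gene, at 0.22 (SE 0.072), Gas5, a small nucleolar RNA host gene, at -0.21 (SE 0.082), and Pvt1 at 0.18 (SE 0.084). In inhibitory-like nuclei Snrpn was at -0.20 (SE 0.091).

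Sex was balanced over the genotypes, and the sex by genotype term was tested in excitatory-like nuclei. It called 0.00808% of 12380 genes and none of the 8 RNAs. Miat was at 258 ± 9.81 CPM in WT males, 204 ± 23.6 CPM in WT females, 222 ± 37.3 CPM in Het males and 214 ± 19.2 CPM in Het females (n = 3 each). Neat1 was at 6.95 ± 1.85, 10.7 ± 2.27, 9.84 ± 1.16 and 8.18 ± 2.48 CPM in the same order. These were the 2 RNAs with an unadjusted p under 0.05 for the term, as had 697 of all 12380 genes tested. Neither passed the adjustment (edgeR adjusted p = 0.852 for Miat and 0.842 for Neat1).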

How the data were processed

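Nuclei were isolated from frozen P21 cortex and sequenced with the Scale Biosciences combinatorial barcoding kit. The deposited matrices hold expected counts (UMIs per gene and barcode, with reads of several genes divided between them by the authors' ScaleRna pipeline on mm10), and 92.6% of their entries were whole numbers. Whether counting used strand is not given in the sources used here, so reads of overlapping antisense genes (Snhg14 and Ube3a, Malat1 and Gm37376) may not be separable. The study's processing notes name Seurat 4.3.0 and DESeq2 1.38.3. Cell labels were not used here, and nuclei were classed anew.

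Kept were barcodes with 800 to 6000 UMIs and 300 to 3000 genes whose mitochondrial share was no more than 1% and whose ln genes were at least 0.9 of ln UMIs (34860 of 78743), and the 5% of each animal with the highest Scrublet scores (1744) were removed as doublets. The upper limit on UMIs alone met 33586 barcodes, so nuclei over 6000 UMIs are absent from the main levels and tests. This fell unequally on the classes. With neither the upper limits nor the ratio, 23157 excitatory-like, 2660 inhibitory-like and 10 oligodendrocyte-like nuclei had over 6000 UMIs. Neurons needed at least 3 marker UMIs from 2 markers, with the other neuronal list at most 25% of them. Glia needed 8 UMIs from 3 markers, with neuronal marker UMIs at most 10%. This rule was revised once after the distributions of marker UMIs and the class levels of neuronal genes and Meg3 were seen, and before any genotype comparison. Of the excitatory-like nuclei 5103 had 3 or 4 marker UMIs.

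Counts were summed per animal and class over animals with at least 10 nuclei, rounded, and tested in edgeR 4.0.16 (TMM, filterByExpr, robust quasi-likelihood) in R 4.3.3, with DESeq2 1.42.0, the study's tool, as an alternative. Comparisons of classes had the animal as a block. Intervals are 1.96 SE on either side, and Poisson intervals cover counting error only. Against glial classes the edgeR SE of most RNAs with few glial UMIs was below that of DESeq2. Those intervals may understate the spread between animals. P-values were adjusted by Benjamini-Hochberg over all genes tested, and the procedure was tested on simulated data. Other alternatives changed normalization, the filters, doublet removal, the marker rule, depth, covariates or left out 1 animal.

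The 8 RNAs and the 7 gene lists were chosen with earlier results of these data known. Named genes were the 8 RNAs, list genes called between genotypes (up to 5 per list), Ube3a, Snrpn, Dlk1, Rtl1 and Dio3 where tested, and the 3 most similar genes of each RNA. B830012L14Rik, Peg3, Kcnk9, Srsf2, Hnrnpk, Sox2ot, Mir9-3hg, Gas5 and Pvt1 were named after their values were seen. 2 list genes had no row in the matrices. Likeness used genes with at least 50 CPM in a class. Positions are from GENCODE M21 and sequences from RefSeq (GRCm38.p6).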

Additional observations from a re-analysis of the deposited data

Results flagged for a closer look

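Within a genotype and class of 6 animals, 8 of 112 sets of levels had 1 animal whose gap to its nearest neighbour exceeded Dixon's critical value, a mark that chance gives to about 1 set in 20. In oligodendrocyte-like nuclei WT female 3 stood apart for Meg3, at 819 CPM against 138 to 207 CPM in the other 5 WT animals, and for Snhg11, at 183 CPM against 19.3 to 49.4 CPM. The 10 neuronal genes outside the class markers were also highest in these 63 nuclei, at 1775 CPM, and their part in both levels was not tested.

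In upper-layer-like nuclei Het female 3 stood apart for Snhg11, at 2110.2 CPM against 2523 to 2753 CPM, and for Malat1, at 23014 CPM against 19043 to 20462 CPM in the other Het animals. Miat was at 325 CPM in Het male 2 against 211 to 248 CPM. Neat1, which is counted with few UMIs in neurons, was at 15.1 CPM in upper-layer-like nuclei of WT female 3 against 0 to 3.52 CPM, at 14.5 CPM in those of Het male 1 against 2.74 to 5.46 CPM, and at 11.0 CPM in inhibitory-like nuclei of Het male 2 against 1.84 to 4.22 CPM.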

How the results depend on the processing

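None of the alternatives called any of the 8 RNAs between genotypes, where tested. The number of RNAs called kept within 1.5 times its main value in the 151 fits that left out 1 animal and the 143 other alternative fits. Under each alternative 6 of the 8 RNAs had their highest level in a neuronal class, though most of the classes are neuronal. The summed level of Meg3, Rian and Mirg in excitatory-like nuclei ran from 13954 to 14439 CPM. For Meg3 between genotypes the difference ran from -0.14 to -0.075 in excitatory-like (adjusted p at least 0.568) and from -0.18 to -0.099 in L6 CT-like nuclei. Few UMIs were counted for Neat1 in neurons and for Mirg in glia, and some glial classes held few nuclei. Intervals of the genotype difference in astrocyte-like nuclei reached from -2.17 to 1.79 on the log2 scale, and the cause was not tested. OPC-like and microglia-like nuclei were not compared between genotypes. Names of classes were rebuilt from markers and may differ from the study's own.

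The number of all genes called moved more. In the main fits it was 19, 3, 10 and 0 for Het against WT in excitatory-like, upper-layer-like, L6 CT-like and inhibitory-like nuclei, 0 in oligodendrocyte-like nuclei, 1 for sex by genotype and 0 for class by genotype. It was 5341, 3215, 6565, 3495 and 3660 for excitatory-like against inhibitory-like, astrocyte-like, oligodendrocyte-like, OPC-like and microglia-like nuclei, and 2731 for L6 CT-like against upper-layer-like nuclei. Counts over 1.5 times away follow, where limits are the upper limits on UMIs and genes per nucleus and ratio that of genes to UMIs, with the comparison in brackets. With DESeq2 they were 61 (Het, excitatory-like), 10 (Het, upper-layer-like), 28 (Het, L6 CT-like) and 3 (sex by genotype). Without the filter on low counts they were 133 (Het, excitatory-like), 16 (Het, upper-layer-like), 67 (Het, L6 CT-like), 26 (Het, inhibitory-like), 5339 (against astrocyte-like), 11702 (against oligodendrocyte-like), 5686 (against OPC-like), 48 (sex by genotype) and 10 (class by genotype). With neither limits nor ratio they were 45 (Het, excitatory-like), 15 (Het, upper-layer-like), 48 (Het, L6 CT-like), 1 (Het, inhibitory-like), 9001 (against inhibitory-like), 5351 (against astrocyte-like), 10053 (against oligodendrocyte-like), 5633 (against OPC-like), 6155 (L6 CT-like against upper-layer-like), 0 (sex by genotype) and 1 (class by genotype). Without the ratio they were 57 (Het, excitatory-like), 14 (Het, upper-layer-like), 41 (Het, L6 CT-like), 7 (Het, inhibitory-like), 0 (sex by genotype) and 2 (class by genotype). With the stricter marker rule they were 5 (Het, excitatory-like), 0 (Het, upper-layer-like), 4 (Het, L6 CT-like), 1623 (L6 CT-like against upper-layer-like) and 0 (sex by genotype). With nuclei thinned to 1500 UMIs they were 12 (Het, excitatory-like), 3490 (against inhibitory-like), 2278 (against OPC-like), 2408 (against microglia-like), 1625 (L6 CT-like against upper-layer-like) and 2 (sex by genotype). With RLE factors they were 2 (sex by genotype). Without doublet removal they were 0 (sex by genotype) and 1 (class by genotype). Leaving out 1 animal gave 4 (without WT female 3) to 28 (without WT female 1) for Het, excitatory-like, 0 (without Het male 3) to 6 (without WT male 1) for Het, upper-layer-like, 5 (without Het male 3) to 46 (without WT male 2) for Het, L6 CT-like, 0 to 1 (without WT female 2) for Het, oligodendrocyte-like, 0 to 21 (without WT male 2) for sex by genotype and 0 to 1 (without WT male 2) for class by genotype. The cause was not tested.

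The replicate block, which joined animals of the same sex and number, gave 11 calls in place of 19 in excitatory-like and 13 in place of 10 in L6 CT-like nuclei, and it called none of the 8 RNAs. Same-numbered animals did not deviate together (correlations of their deviations from -0.19 to 0.13 in excitatory-like and from -0.40 to 0.16 in inhibitory-like nuclei), so the numbers were not read as pairs, and the block changed no other call.

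Log2 differences that changed sign were uncalled in the main fits. In excitatory-like nuclei Rian was -0.037 and became -0.078 to 0.011 with 1 animal left out. Mirg was 0.032 and became -0.051 with neither limits nor ratio. Neat1 was 0.012 and became -0.15 with neither limits nor ratio, -0.085 without the ratio and -0.14 to 0.21 with 1 animal left out. In upper-layer-like nuclei Rian was -0.036 and became 0.017 without the filter on low counts and -0.074 to 0.0061 with 1 animal left out. Mirg was -0.089 and became 0.036 without the ratio, 0.074 with nuclei thinned to 1500 UMIs and -0.15 to 0.020 with 1 animal left out. Snhg11 was -0.044 and became 0.0069 without the filter on low counts, 0.026 with the stricter marker rule and -0.074 to 0.0099 with 1 animal left out. Miat was 0.075 and became -0.045 with neither limits nor ratio and -0.016 to 0.13 with 1 animal left out. Malat1 was 0.030 and became -0.016 with the stricter marker rule and -0.018 to 0.091 with 1 animal left out. In L6 CT-like nuclei Rian was -0.046 and became 0.0032 without the filter on low counts. Malat1 was -0.036 and became 0.013 without the filter on low counts, 0.012 with neither limits nor ratio and -0.075 to 0.00015 with 1 animal left out. In inhibitory-like nuclei Rian was -0.035 and became -0.085 to 0.0068 with 1 animal left out. Mirg was -0.041 and became 0.043 with nuclei thinned to 1500 UMIs and -0.096 to 0.012 with 1 animal left out. Snhg14 was -0.042 and became 0.030 with the stricter marker rule. Miat was -0.0053 and became 0.0054 without the filter on low counts, 0.014 without doublet removal, 0.015 with the stricter marker rule, 0.0072 with sex as a covariate and -0.095 to 0.060 with 1 animal left out. In astrocyte-like nuclei Meg3 was -0.50 and became 0.36 with the stricter marker rule, 0.17 with the replicate block and -1.09 to 0.13 with 1 animal left out. Snhg11 was 0.073 and became -0.22 with neither limits nor ratio, -0.17 with sex as a covariate and -0.43 to 0.40 with 1 animal left out. Malat1 was -0.13 and became 0.0079 without the filter on low counts and 0.016 with neither limits nor ratio. Neat1 was -0.45 and became 0.18 with neither limits nor ratio and 0.54 with the replicate block. In oligodendrocyte-like nuclei Meg3 was -0.54 and became 0.14 with the stricter marker rule and -0.69 to 0.15 with 1 animal left out. Snhg11 was -0.037 and became 0.013 without the filter on low counts, 0.043 with neither limits nor ratio, 0.29 without the ratio, 0.00066 without doublet removal, 0.33 with the stricter marker rule, 0.29 with nuclei thinned to 1500 UMIs and -0.26 to 0.43 with 1 animal left out. Neat1 was 0.050 and became -0.052 with nuclei thinned to 1500 UMIs and -0.20 to 0.37 with 1 animal left out. In excitatory-like compared with astrocyte-like nuclei Malat1 was -0.16 and became 0.33 without the filter on low counts, 0.40 with neither limits nor ratio and 0.31 without the ratio. In L6 CT-like compared with upper-layer-like nuclei Meg3 was 0.026 and became -0.022 with neither limits nor ratio and -0.051 without the ratio. Rian was 0.030 and became -0.071 with neither limits nor ratio and -0.049 without the ratio. Snhg14 was 0.018 and became -0.051 with the stricter marker rule. Miat was -0.071 and became 0.079 with neither limits nor ratio. Between excitatory-like and inhibitory-like nuclei Meg3 at -0.14 without the filter on low counts and Rian at -0.16 with neither limits nor ratio lost their calls. Of the levels recomputed for each RNA and class with other filters, marker rule or depth, 415 stayed within 1 SD and 25 moved farther, among them Mirg in astrocyte-like (29.1 in place of 4.38 CPM) and Rian in excitatory-like nuclei (1190.6 in place of 1034 CPM), both with neither limits nor ratio.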
